A study of Mus musculus with 4 samples.

Results

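Oligosaccharyltransferase is the enzyme complex of the endoplasmic reticulum (ER) membrane that moves a preassembled sugar tree from a lipid carrier onto asparagines of new proteins, the first step of N-glycosylation. Its catalytic subunit is either STT3A, which works beside the protein-conducting channel while a chain is being made, or STT3B, which acts on sites that were passed over. Ribophorin I and II, OST48, DAD1 and OST4 surround both catalytic subunits, and MAGT1 or TUSC3 joins the STT3B form. In fibroblasts the complex serves secreted matrix proteins and their regulators, TIMP1 among them, which is itself an N-glycoprotein.

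The genes Rpn1, Rpn2, Ddost, Dad1, Stt3a, Stt3b, Ost4, Magt1 and Tusc3 were read by every non-control array probe that carried one of these 9 names. There were 18 such probes among 56605, and 37074 names in all. The family was selected on the log2 fold change of Rpn1 between the groups, so the differences below are a description. No p-value among them counts as a test of the family.

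Cells of the mouse fibroblast line NIH3T3 were transfected with an siRNA against Timp1 (siTIMP1, 2 arrays) or with a control siRNA (siControl, 2 arrays). In both groups the siRNA was delivered with an apatite nanoparticle, sCA in the labels, in medium holding 2% fetal calf serum. The labels name the cells dermal fibroblasts and do not say whether replicates were separate cultures. The p-values therefore reflect the spread among these 4 samples alone, and that spread may be technical. All 4 arrays lay on 1 slide read in 1 scan, siTIMP1 at positions 3 and 4 and siControl at positions 1 and 2, so position and group cannot be told apart.

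Timp1 kept 2.68% of the siControl level in siTIMP1 cells. No spot was saturated. The share of spots well above background was 45.9% on siTIMP1 replicate 2 and 50.4% to 52.1% on the other arrays. Of the fibroblast markers Col1a1, Col1a2, Vim, Pdgfrb and Thy1, 5 of 5 were well above background on every array, with summed signals of 197484 to 199442 in siTIMP1 and 171496 to 197823 in siControl. None of 4 epithelial and 3 endothelial markers was above background on every array. Of 4 leukocyte markers, Ptprc (the brightest of its 7 probes) and Cd68 were, and Adgre1 and Lyz2 were on none. Only 1 of the 7 Ptprc probes, this brightest one, passed the filter of the fit. The summed signal of these leukocyte markers was 717 to 929 in siTIMP1 and 773 to 782 in siControl. Their part in the results was not tested.

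The probes that separate the groups most, and the Stt3a pair of opposite sign, are shown 5′ to 3′ as the array files give them. Each value below is the brightness of 1 such 60-base spot. Of the Rpn1 probe only bases 1 to 30 are given.
Rpn1 probe, bases 1 to 30: gcgtttcagcagttgatgggtggtttctgt
Tusc3 probe 1: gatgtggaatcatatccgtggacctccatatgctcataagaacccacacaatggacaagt
Tusc3 probe 2: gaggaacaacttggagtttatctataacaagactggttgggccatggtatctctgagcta
Stt3a probe 1: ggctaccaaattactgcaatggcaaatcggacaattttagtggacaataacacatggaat
Stt3a probe 2: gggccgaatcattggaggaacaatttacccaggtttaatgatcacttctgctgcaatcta

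The Rpn1 probe lies on chromosome 6 at 88053786 to 88053845 (mm9, plus strand) and begins at base 2129 of a RefSeq mRNA. Tusc3 probe 1 lies on chromosome 8 at 40160008 to 40160067, and Tusc3 probe 2 spans 40134516 to 40189587, so its 60 bases join sequence from separate places in the genome. Stt3a probe 1 lies on chromosome 9 at 36549326 to 36549385 on the minus strand, and Stt3a probe 2 is likewise split, over 36566425 to 36566819. Where a gene has several probes they are numbered by their level in siControl.

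Rpn1 was the only gene called among the 9. Rpn1 encodes ribophorin I, which handles the acceptor chain next to the channel. Its processed signal was 6529 and 6188 on the siTIMP1 arrays and 11456 and 11186 on the siControl arrays. Both siTIMP1 arrays were lower than both siControl arrays, and the arrays of a group were close to each other. After scaling, the normalised log2 signal was 5.07 ± 0.05 in siTIMP1 and 5.94 ± 0.0012 in siControl (SD, n = 2 each). The scanner software gave this spot an error of 10.0% of its signal on each array. The small siControl SD, from 2 arrays, is therefore no measure of precision. Rpn1 fell by 0.88 on the log2 scale (standard error, SE, 0.0528, 95% interval -1.01 to -0.74, limma adjusted p = 0.0211), so that siTIMP1 cells kept 54.4% of the siControl level. In bulk RNA, fewer cells that express a gene and less of its RNA per cell cannot be told apart. Among all tested probes 0.627% were called lower and 0.0615% higher at an adjusted p under 0.05. Of the oligosaccharyltransferase probes 1 of 15 was called lower and 0 of 15 higher, from which nothing is read, since Rpn1 chose the family. At an unadjusted p under 0.05 there were 3 of these 15 probes, against 18.4% of all tested probes, and adjusted p under 0.1 added none.

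Rpn1 has 1 probe on the array, so no other probe bears on its value. Without siTIMP1 replicate 1 its log2 fold change was -0.92 with limma adjusted p = 0.145, and without siTIMP1 replicate 2 it was -0.84 with adjusted p = 0.184. Over 13 alternatives the value stayed between -0.95 and -0.84 and the adjusted p between 0.00155 and 0.184, and the call was kept in 10. By size, Rpn1 ranked 112 among the 163 probes called lower, and 805 tested probes of any p had a larger fall.

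**Figure D1:**
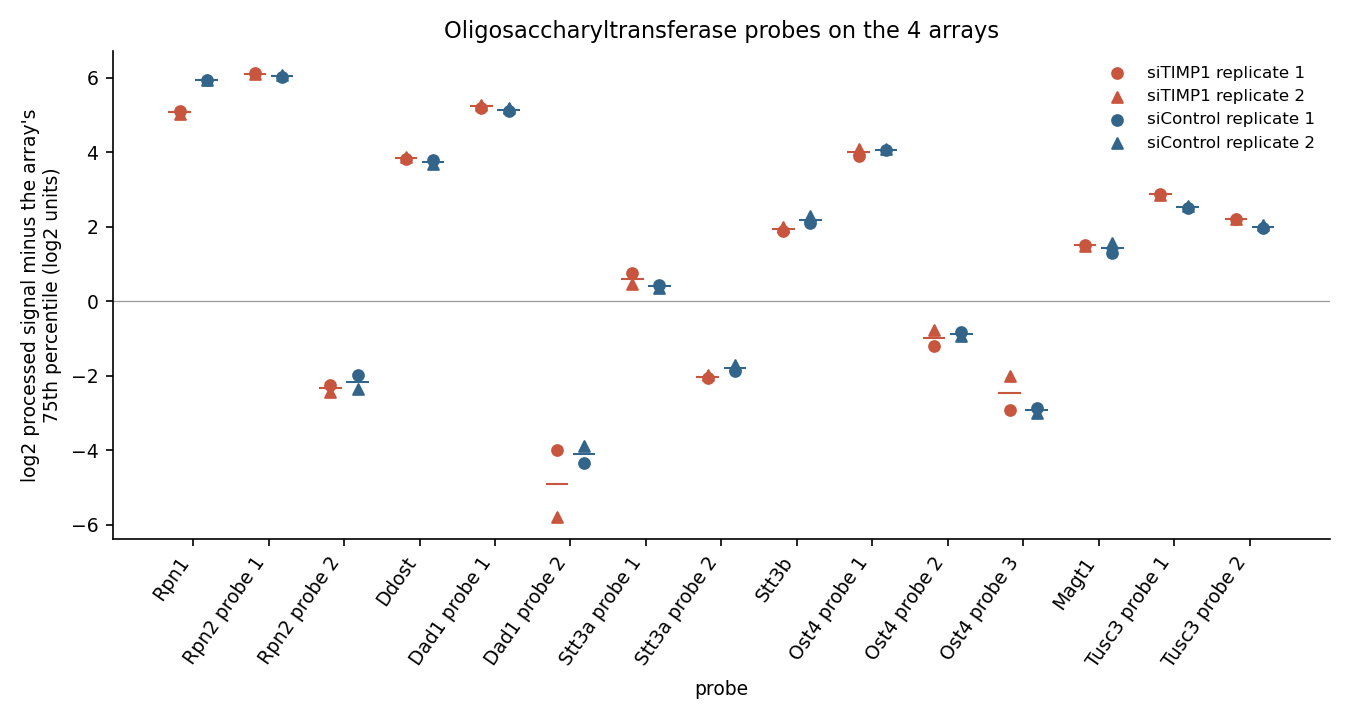
Normalised log2 signal (vertical axis, log2 units relative to each array's 75th percentile) of the 15 tested oligosaccharyltransferase probes (horizontal axis), siTIMP1 in red left of siControl in blue, with circles for replicate 1, triangles for replicate 2 and a line at each group's mean. For Rpn1 the siTIMP1 mean of 5.07 lies below the siControl mean of 5.94, while the bright probes of Rpn2, Ddost, Dad1 and Ost4 lie nearly level.

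None of the core subunits that accompany ribophorin I was called. Rpn2, which encodes ribophorin II, had signals of 13262 and 12882 in siTIMP1 and 12019 and 12189 in siControl at its bright probe (chromosome 2, 157151611 to 157151670). The log2 fold change was 0.07 (SE 0.0490, 95% interval -0.06 to 0.19, limma adjusted p = 0.499), and with quantile normalization the value was -0.0088. Both siTIMP1 arrays were above both siControl arrays by a small margin. A second Rpn2 probe, drawn from an Ensembl transcript, was dim, with 40.2 and 35.3 in siTIMP1 and 47.6 and 35.6 in siControl. Its groups overlapped.

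Ddost encodes OST48, a single-pass membrane subunit. Its only probe (chromosome 4, 137867910 to 137867969) read 2664 and 2765 in siTIMP1 and 2565 and 2327 in siControl, a log2 fold change of 0.11 (SE 0.0690, limma adjusted p = 0.446). Dad1, named as a defender against cell death, encodes a small subunit. Its bright probe (chromosome 14, 54855313 to 54855372) read 6953 and 7305 in siTIMP1 and 6425 and 6590 in siControl, a log2 fold change of 0.09 (SE 0.0583, limma adjusted p = 0.464). In both genes the siTIMP1 arrays lay above the siControl arrays without overlap, as at 29.8% of all tested probes, and neither was called. With quantile normalization the values were 0.04 for Ddost and 0.02 for this Dad1 probe. The second Dad1 probe was near background, at 11.9 and 3.45 in siTIMP1 and 9.28 and 12.3 in siControl. One siTIMP1 spot was not well above background, and the value of -0.78 (SE 0.670) became 0.11 without siTIMP1 replicate 2.

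Ost4 encodes a very short membrane peptide of the complex. Probe 1 (chromosome 5, 31208996 to 31209055) read 2821 and 3239 in siTIMP1 and 3075 and 3111 in siControl, and the groups overlapped (log2 fold change -0.08, SE 0.0858, limma adjusted p = 0.646). Probe 2 read 82.3 and 111 in siTIMP1 and 105 and 94.7 in siControl, again with overlap. Its coordinates run on the plus strand, while the other 2 Ost4 probes and the gene itself lie on the minus strand, so what it reads is uncertain. Probe 3 read 25.0 and 46.9 in siTIMP1 and 25.6 and 23.0 in siControl, where siTIMP1 replicate 2 alone stood apart. Its value was 0.45 on all arrays and 0.00056 without that array.

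**Figure D2:**
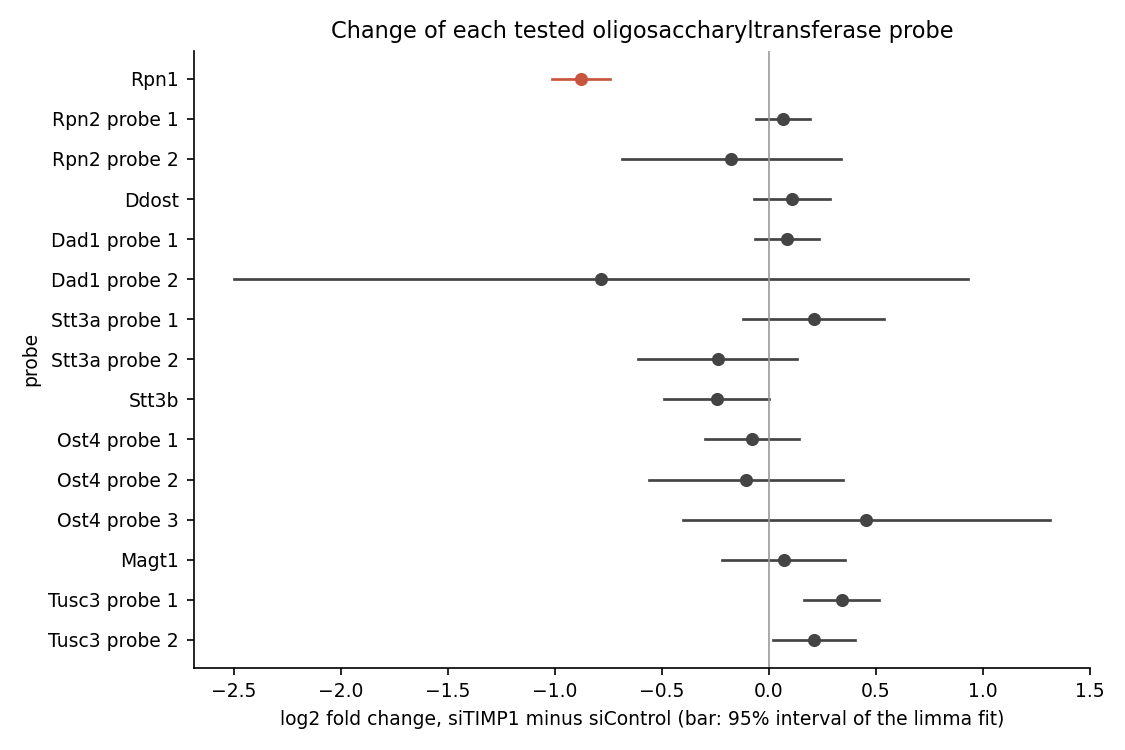
Log2 fold change, siTIMP1 minus siControl (horizontal axis), of each tested probe (vertical axis), with the 95% interval of the limma fit as a bar. Rpn1, in red, is the only probe called, at -0.88, and the next lowest bright probe, that of Stt3b, is at -0.24.

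Neither gene for a catalytic subunit was called. Stt3a probe 1 read 322 and 261 in siTIMP1 and 252 and 234 in siControl, a log2 fold change of 0.21 (SE 0.129, 95% interval -0.12 to 0.54, limma adjusted p = 0.429). Stt3a probe 2 was dimmer, at 45.3 and 48.0 in siTIMP1 and 51.1 and 55.7 in siControl, and had the opposite sign (-0.24, SE 0.145, adjusted p = 0.424 by limma). Neither probe's groups overlapped, as at 53% of all tested probes. The 95% interval of probe 2 was -0.61 to 0.13, so both intervals included no change. Without siTIMP1 replicate 1 the value of probe 1 was 0.06. The sign of Stt3a was therefore not settled by either probe. Stt3b (chromosome 9, 115151925 to 115151984) read 704 and 759 in siTIMP1 and 800 and 881 in siControl, a log2 fold change of -0.24 (SE 0.0955, 95% interval -0.49 to 0.0005, limma adjusted p = 0.273). Both siTIMP1 arrays were below both siControl arrays. This value kept its sign in all 13 alternatives, between -0.33 and -0.16, and was called in none.

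MAGT1 and TUSC3 are alternative thiol oxidoreductases that help the STT3B form reach cysteine-rich sites. Tusc3 had the highest log2 fold change of the 9 genes when each was represented by its brightest tested probe. Probe 1 read 1405 and 1364 in siTIMP1 and 1055 and 1066 in siControl, with a log2 fold change of 0.34 (SE 0.0682, 95% interval 0.17 to 0.51, limma adjusted p = 0.120). Probe 2 read 884 and 875 in siTIMP1 and 723 and 748 in siControl, with a log2 fold change of 0.21 (SE 0.0746, 95% interval 0.02 to 0.40, limma adjusted p = 0.240). Probe 1 is drawn from a RefSeq mRNA and lies inside the genomic span of probe 2, which is drawn from an Ensembl transcript. Whether both read the same transcript was not tested. Both probes were higher on both siTIMP1 arrays and neither was called, here or in any of 13 alternatives, over which the values lay at 0.30 to 0.36 and 0.17 to 0.25. Magt1 (chromosome X, 103174745 to 103174801) read 541 and 533 in siTIMP1 and 458 and 538 in siControl. Its groups overlapped (log2 fold change 0.07, SE 0.113, limma adjusted p = 0.765), and without siControl replicate 1 the value was -0.06.

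Of the 18 probes 15 were tested, namely those that cleared background on each array of siTIMP1 or on each array of siControl. The other 3 were left out. A Tusc3 probe drawn from a GenBank cDNA read 1.79 and 3.06 in siTIMP1 and 1.86 and 1.83 in siControl, not well above background on any array. Stt3a probes from 2 Ensembl transcripts read 5.31 and 6.0, and 10.3 and 3.64, in siTIMP1, and 7.86 and 2.03, and 5.43 and 7.32, in siControl. Of these spots only that of 10.3 was well above background.

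The groups did not overlap at 9 of the 15 tested probes, 3 lower and 6 higher in siTIMP1. Over all tested probes this held for 53% (23.2% lower and 29.8% higher), so the family's share is near that of the whole array. The median log2 fold change was 0.07 over the 15 probes and 0.02 over all 26015. Arrays of a group differed by a median of 0.09 within siTIMP1 and 0.11 within siControl at these probes, against 0.12 and 0.15 at all probes.

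**Figure D3:**
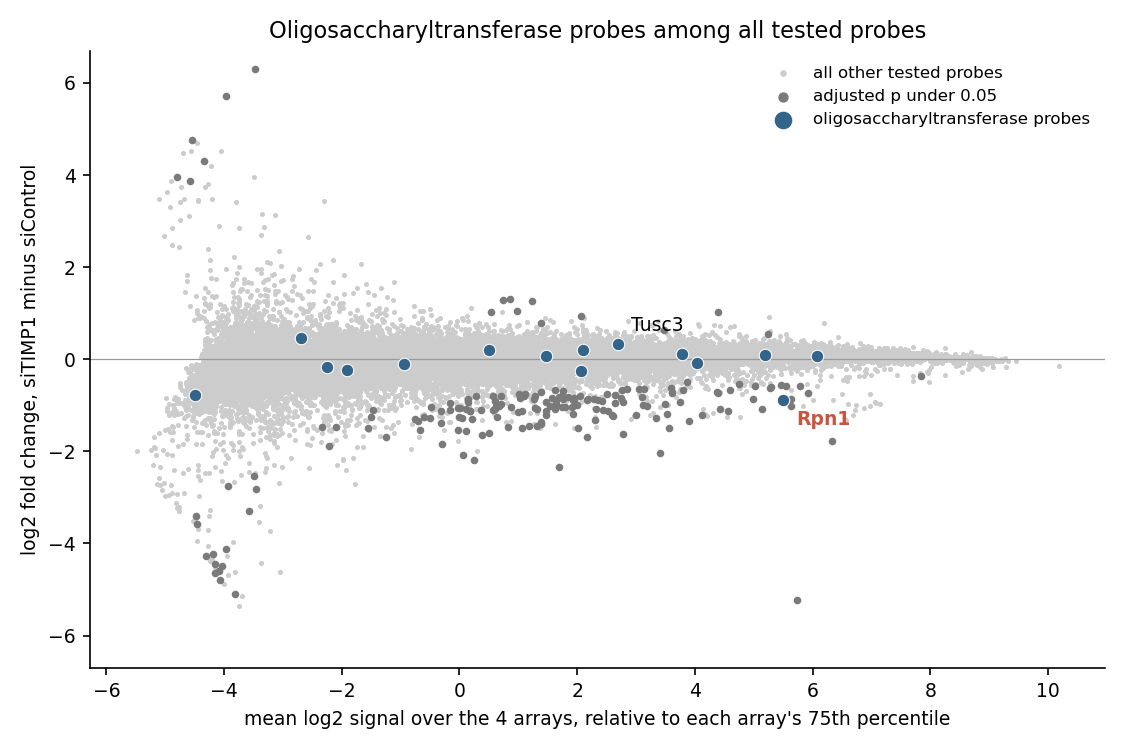
Log2 fold change (vertical axis, siTIMP1 minus siControl) against the mean log2 signal over the 4 arrays (horizontal axis, relative to each array's 75th percentile) for all 26015 tested probes in grey, called probes in dark grey and the 15 oligosaccharyltransferase probes in blue. Rpn1 lies among called falls of bright probes, and none of the other 14 blue points is a called probe.

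Genes with the pattern most like that of Rpn1 were sought among 12513 others with a symbol, by the root mean square difference of the 4 log2 values after each gene's own mean was subtracted. The nearest were Prpf38a, a splicing factor (0.0189), Pafah1b1, a regulator of dynein (0.0237), Timm17a, part of the mitochondrial import channel (0.0245), Pcdhb22, a protocadherin (0.0257), and Ube2d3, a ubiquitin-conjugating enzyme (0.0265). Their log2 fold changes lay between -0.89 and -0.87, and all but Pcdhb22 (limma adjusted p = 0.0726) were called. Among the other subunits Stt3b came nearest to Rpn1, at rank 1530 with a difference of 0.329, and Tusc3 was farthest, at rank 11100 with 0.609. With 4 arrays this measure mainly reflects the size and sign of the group difference.

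Further subunits outside the 9 genes are Ostc and Krtcap2, which link the STT3A form to the channel, and Tmem258. Ostc read 2604 and 2640 in siTIMP1 and 2214 and 2210 in siControl, a log2 fold change of 0.20 (SE 0.0593, limma adjusted p = 0.195). Tmem258 had values of 0.18 at each of its 2 probes, and Krtcap2 had -0.01. None of the 3 was called by limma, and 2 had an unadjusted p under 0.05, both higher in siTIMP1. Per gene, 0.699% of 17734 tested genes were called lower and 0.0846% higher, and 7.98% and 11.8% had an unadjusted p under 0.05 in these directions.

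The lipid-linked sugar donor of the reaction is built on dolichol by the enzymes of the next list, of which 27 of 28 were tested. None was called by limma, and 1 was lower and 8 higher at an unadjusted p under 0.05. The median log2 fold change was 0.13, against 0.02 over all tested genes. Medians of this and the other lists were not recomputed with other scalings. The median of the oligosaccharyltransferase probes went from 0.07 to -0.0088 with quantile normalization. Dolpp1, a phosphatase that recycles dolichol, read 737 and 725 in siTIMP1 and 968 and 1242 in siControl (log2 fold change -0.63, SE 0.141, limma adjusted p = 0.142). Dpm1 and Dpm2, subunits of the synthase of dolichol phosphate mannose, had 0.29 and 0.32, and Nus1, which helps make dolichol, had 0.24.

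Once transferred, the glycan is trimmed and read by lectins that hold, export or discard the protein. Of 19 such genes 1 was called lower and none higher, with a median of 0.11, or 0.019 when each gene's probes were averaged. At an unadjusted p under 0.05 in limma, 2 were lower and 5 higher. Edem1, a lectin-like protein of ER disposal, read 166 and 144 in siTIMP1 and 448 and 460 in siControl, and its other probe had a value of -1.70. It fell by 1.60 (SE 0.110, limma adjusted p = 0.0225), a call kept in 10 of 13 alternatives and lost without siTIMP1 replicate 1 (-1.70, adjusted p = 0.142), without siTIMP1 replicate 2 (-1.50, adjusted p = 0.184) and without the variance trend (adjusted p = 0.133). Edem3, of the same family, had 0.41 and was not called, and its other probes had values from -0.31 to 1.97. Lman1, a lectin that carries glycoproteins to the Golgi, had -0.35 with 0.12 at its other probe, and its partner Mcfd2 had 0.23.

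The channel and its attendants, beside which the STT3A form works, gave 1 called lower and none higher among 24 tested genes, with a median of 0.06. At an unadjusted p under 0.05 in limma, 1 was lower and 7 were higher. Ssr1, the alpha subunit of the translocon-associated protein complex, read 3174 and 2987 in siTIMP1 and 5078 and 4737 in siControl. It fell by 0.72 (SE 0.0637, limma adjusted p = 0.0287), but its other probe had a value of 0.22, and averaged over both probes the value was -0.25 and not called (adjusted p = 0.208). The call at its brightest probe was likewise lost without siTIMP1 replicate 1 (-0.76, adjusted p = 0.177 by limma), without siTIMP1 replicate 2 (-0.67, adjusted p = 0.240) and without the variance trend (adjusted p = 0.159). Ssr2, the beta subunit, had 0.21, and Tram1 and Srp68, which act in chain insertion and signal recognition, had 0.42 and 0.34. None of these 3 was called.

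Golgi enzymes that remodel the glycan gave no call among 17 tested of 18, with 2 lower and 1 higher at an unadjusted p under 0.05 in limma. Their median was 0.05, and -0.0038 when each gene's probes were averaged. Mgat1, which opens the way to complex glycans, had 0.31 with -0.23 at its other probe. The mannosidase genes Man1a2 and Man2a1 had -0.46 and -0.23, and Man2a2 had 0.18 with -1.03 at its other probe.

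**Figure D4:**
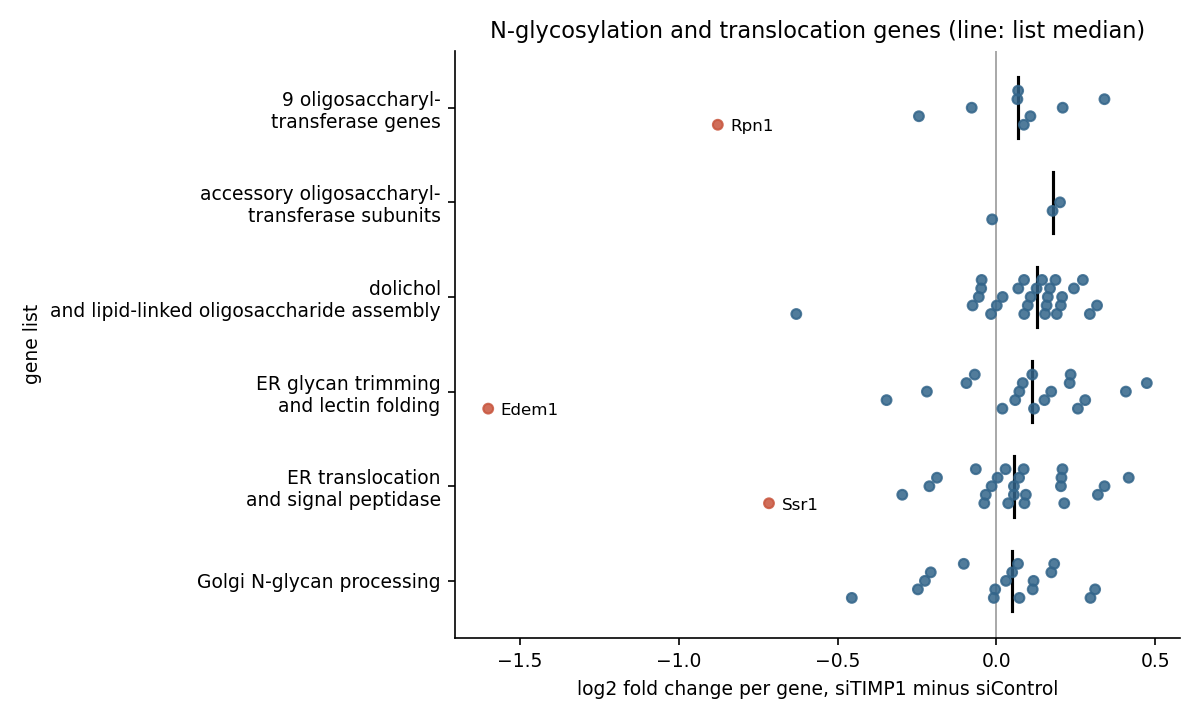
Log2 fold change of each tested gene (horizontal axis, siTIMP1 minus siControl, each gene by its brightest tested probe) in the 9 oligosaccharyltransferase genes and 5 lists of related genes (vertical axis), with called genes in red and named and a black line at each list's median. Rpn1 (-0.88), Edem1 (-1.60) and Ssr1 (-0.72) are the only called genes, and the list medians lie between 0.05 and 0.18.

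The upstream sequences of the 2 ribophorin genes are shown because Rpn1 was called and Rpn2 was not. They are the 250 bases before the annotated start, from RefSeq on GRCm38.p6, on the plus strand. Capitals mark CCAAT or its reverse complement ATTGG.
Rpn1 promoter (chr6:88084223-88084472): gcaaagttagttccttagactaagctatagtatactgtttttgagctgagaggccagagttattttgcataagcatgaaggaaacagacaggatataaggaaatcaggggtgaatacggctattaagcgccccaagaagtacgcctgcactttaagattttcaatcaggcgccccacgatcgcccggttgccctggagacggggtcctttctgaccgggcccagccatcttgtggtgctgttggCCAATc
Rpn2 promoter (chr2:157278848-157279097): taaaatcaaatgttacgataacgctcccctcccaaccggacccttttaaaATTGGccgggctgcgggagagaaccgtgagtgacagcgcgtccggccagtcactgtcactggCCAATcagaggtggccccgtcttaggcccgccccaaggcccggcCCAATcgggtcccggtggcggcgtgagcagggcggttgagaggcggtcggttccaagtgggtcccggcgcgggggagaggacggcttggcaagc

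On either strand CCAAT occurred once in the Rpn1 window and at 3 places in this Rpn2 window, while a second annotated Rpn2 start had none. Windows were at hand for 8 of the 9 genes, all but Tusc3, and CCAAT was in 7 of their 9 windows, with none in that of Ost4. Of all 32851 windows of that length, 33.9% held it. Longer motifs known from genes of the ER stress response were searched likewise on both strands, namely ERSE and ERSE-II, each of which contains CCAAT or its reverse complement, and UPRE (TGACGTGG). They were in 0 of the 9 windows, against 0.11%, 0.03% and 0.56% of all windows in that order. A match is a description of these letters and not a measured binding site.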

How the data were processed

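Total RNA of 4 NIH3T3 samples was hybridised to 1-colour (Cy3) Agilent arrays. Per the file headers, the deposited processed intensity of each spot was background-subtracted and detrended within its array by Agilent Feature Extraction 11.5.1.1, with no scaling between arrays, and probe coordinates are those of mm9. The authors' deposited value table holds log2 values. Set against each array, each column was the log2 processed signal minus a constant of 6.90 to 6.96 (Pearson r 0.999999), with column medians of -3.99 and -3.91 for siTIMP1 and -3.94 and -3.86 for siControl.

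Here each log2 processed signal was set relative to the 75th percentile of its array, taken over spots that are not controls. Outlier spots, 136 to 250 an array, were left out. The linear model of limma 3.58.1 with a trended eBayes, run in R 4.3.3, was fitted on 26015 probes, with Benjamini-Hochberg adjustment over them and a threshold of 0.05. A gene in a list was represented by its tested probe of highest mean. Symbols were updated by RefSeq accession, and Srpra was found under an older name. All adjusted p-values are from limma. Other settings for background, scaling, filter, variance, outlier spots, source table and arrays left out were tried. Members and lists were chosen with earlier results of these data known. All members and accessory subunits are named, and of each other list the called genes and then those of smallest p, up to 4. Figures were drawn with matplotlib 3.10.9. The number of arrays limits the precision.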

Additional observations from a re-analysis of the deposited data

How the results depend on the processing

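The settings varied were the background correction (normexp), the scaling (quantile, or the percentile over detected probes), the filter on dim probes (stricter or none), the variance model (robust, or without a trend), outlier spots kept, the authors' value table, an adjusted p under 0.1 and each array left out. With 1 array left in a group, limma assumes that it varies like the others. The count of oligosaccharyltransferase probes called lower was 1, and 0 in limma without a trend, where Rpn1 had an adjusted p of 0.133. It was 0 to 1 with 1 array left out (0 without either siTIMP1 array), and 0 probes were called higher throughout. Over all probes, 163 called lower turned into 334 without a filter, 249 with the robust model, 0 without a trend and 0 to 840 with 1 array left out. The 16 called higher turned into 124, 61, 0 and 0 to 483. The median of the family, 0.07, was -0.0088 with quantile normalization and 0.017 to 0.059 with 1 array left out. Among single probes 185 values kept sign and side of the threshold, 3 lost a call (all Rpn1) and 6, called in neither fit, changed sign. These were Rpn2 probe 1 with quantile normalization (-0.0088) and 5 with 1 array left out. With each array left out in turn the values ran from -0.37 to 0.017 for Rpn2 probe 2, from -0.064 to 0.20 for Magt1, from -0.18 to 0.023 for Ost4 probe 1, from -0.33 to 0.11 for Ost4 probe 2 and from -1.67 to 0.11 for Dad1 probe 2. For these settings the cause was not tested. The same settings were applied to Edem1 and Ssr1 after the data were seen, and each kept its call in 10 of 13. In limma without a trend, where Rpn1, Edem1 and Ssr1 lost their calls, no tested probe was called in either direction. The loss in that setting is therefore not particular to these genes. A fit with the slide as a block was not run, all arrays being on 1 slide. No paired analysis was possible because siTIMP1 and siControl share no replicate number in the labels. Probes near background limit what is seen of Dad1 probe 2 and the untested Stt3a and Tusc3 probes.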

Other observations

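Several genes of the glycosylation and translocation lists had probes that disagreed. The 5 with the widest spread of log2 fold change over their tested probes are given, a choice made after the values were seen. Edem3 had 0.41 at its brightest probe and -0.31 to 1.97 at the others, and Alg6, a glucosyltransferase of the sugar donor, had 0.09 and between -0.88 and 1.23. Man2a2 had 0.18 and -1.03. Pmm1, listed with the enzymes of the sugar donor, had 0.16 and between -0.78 and 0.10, and Ssr1 had -0.72 and 0.22. Of these brightest probes that of Ssr1 alone was called by limma. The probes of Edem1, in contrast, had -1.60 and -1.70.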
